A study of Homo sapiens with 6 samples.

Results

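The genes examined here are 40 genes of the unfolded protein response and of the chaperone machinery of the endoplasmic reticulum (ER), chosen by symbol for their known roles from the 62710 gene rows analysed. All 40 passed the filter on low values, a mean normalized value of at least 10 over the 6 libraries, which 16347 genes passed in all. They were compared between parental H526 cells and onvansertib-resistant H526 cells. H526 is a human small cell lung cancer (SCLC) line, and onvansertib is an inhibitor of the mitotic kinase PLK1. The resistant cells are 1 line, derived from parental H526 by raising onvansertib in steps from 10 to 75 nM over a year, and both lines grew in RPMI-1640 with fetal bovine serum. RNA was harvested 3 times from each, which gave parental libraries 1, 2 and 3 and resistant libraries 7, 8 and 9. No source used here says whether the resistant line is a single clone, or whether drug was present at harvest. The p-values below therefore measure the spread between harvests of 1 parental and 1 resistant line.

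The ER folds proteins that enter the secretory pathway. When unfolded proteins accumulate there, sensors in its membrane start the unfolded protein response. IRE1 (gene *ERN1*) splices the mRNA of the transcription factor XBP1, PERK (gene *EIF2AK3*) phosphorylates the translation factor eIF2 and thereby favours translation of ATF4, and ATF6 is cut in the Golgi into an active transcription factor. The programmes they control raise chaperones, protein disulfide isomerases, the translocon and the machinery that returns misfolded proteins to the cytosol for degradation (ER-associated degradation, ERAD). Many targets answer to more than one branch, so the branch given to a gene below is its best known one. All these signals act partly on proteins and on splicing, which gene-level RNA values do not show. In particular, spliced and unspliced *XBP1* are summed in the values used here.

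The libraries held between 22386669 and 28514440 reads, as estimated from the value that 1 read takes in each library, and every resistant library was shallower than every parental one. Markers of the labelled cell type were present in part. The epithelial genes *EPCAM*, *KRT8* and *KRT18* were at 5273 or more in every library, and *POU2F3*, the factor of the tuft-like SCLC subtype, was between 24511 and 27873 in every library, while *NEUROD1* was at 5.49 or less. The neuroendocrine factor *INSM1* was between 5626 and 6729 in parental and between 1183 and 1385 in resistant libraries. The markers *PTPRC*, *COL1A1*, *PECAM1* and *ALB*, of cells that the culture should lack, summed to between 42.6 and 86.1 in parental and between 252.7 and 293.6 in resistant libraries. *COL1A1* made up most of that sum, and *PTPRC* and *PECAM1* were at 0 in 5 of the 6 libraries each. The part of these markers in the results below was not tested.

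Most of the 40 genes that differed between the lines were lower in resistant cells. In the limma fit over all genes tested, 15 of the 40 fell, 4 rose and 21 were not called at a Benjamini-Hochberg adjusted p under 0.05. In these bulk libraries fewer cells with a transcript and less of it per cell cannot be told apart. Among all 16347 genes, 37.7% were called, 19.8% lower and 17.8% higher, against 47.5% of the 40 called, 37.5% lower and 10.0% higher. With quantile normalization of the libraries the split was 6 higher and 11 lower, with 6097 of all genes called. The split of all genes by direction was not taken under that setting. Local centring, in which the median deviation of up to 50 neighbouring tested genes on the chromosome was subtracted in each library, gave 4 higher and 13 lower, against 14.5% and 16.4% of all genes. The median log2 fold change (resistant minus parental, on the log2(value + 1) scale) was -0.14 for the 40 genes and -0.00086 for all genes, and 31 of the 40 values were below 0. In 21 of the 40 genes (52.5%) the parental and resistant libraries did not overlap, close to the share over all genes tested, 49.9%. The changes were moderate: log2 fold changes ran from -1.32 for *SEC61B* to 0.74 for *EDEM1*. Together the 40 genes took 0.897%, 0.828% and 0.841% of the summed values of parental libraries 1, 2 and 3, and 0.765%, 0.726% and 0.810% in resistant libraries 7, 8 and 9. For 1 gene, 3 libraries against 3 allow an exact two-sided permutation p of 0.10 at the lowest.

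**Figure D1:**
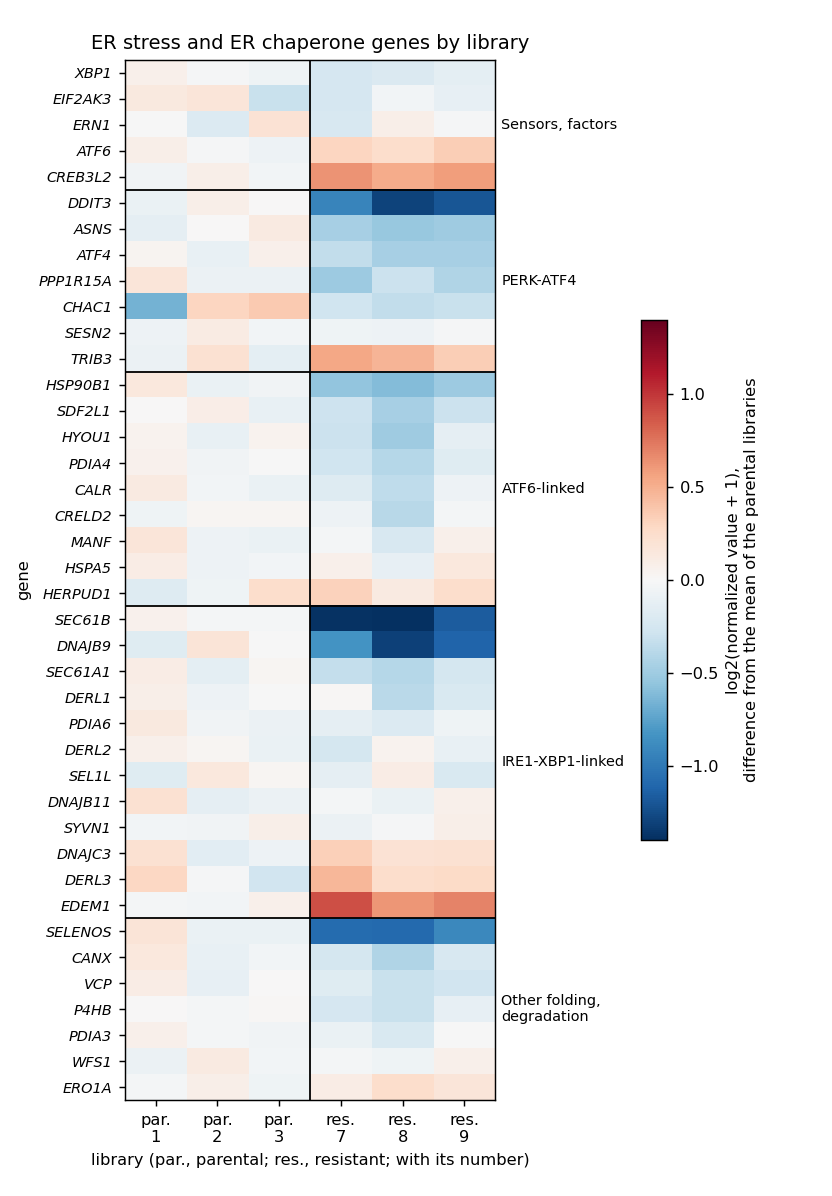
Log2(normalized value + 1) of each of the 40 genes (rows, by branch) in each of the 6 libraries (columns), as the difference from the mean of the parental libraries; red is higher and blue lower. *SEC61B*, *DNAJB9*, *DDIT3* and *SELENOS* are blue in all 3 resistant libraries, *EDEM1* and *CREB3L2* red, and *CHAC1* stands low in parental library 1.

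**Figure D2:**
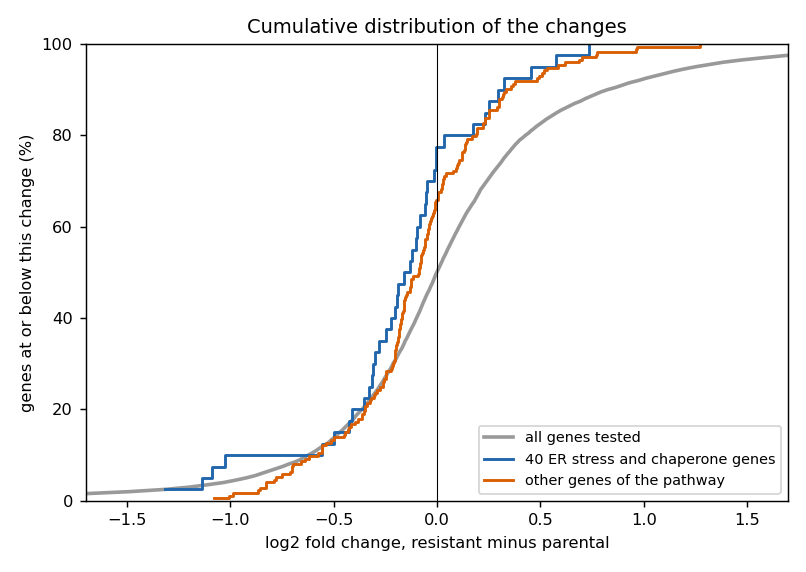
Cumulative share of genes (%) against log2 fold change for all genes tested (grey), the 40 genes (blue) and 173 other tested genes of the pathway (orange). Of the 40 genes, 31 lie below 0, and none lies above 0.74, while the 95th percentile of all genes is 1.25.

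Of the sensors and the factors of the ER membrane, *ATF6* and *CREB3L2* were higher in resistant cells, and *ERN1*, *EIF2AK3* and *XBP1* were not called. *ATF6* (ENSG00000118217, chr1:161766298-161977574) was at 3150, 2947 and 2829 in parental libraries 1, 2 and 3 and at 3666, 3518 and 3781 in resistant libraries 7, 8 and 9. Every resistant library lay above every parental one. The log2 fold change was 0.30 (standard error, SE, 0.067, limma adjusted p = 0.00589). *CREB3L2* (chr7:137874979-138002086), which encodes an ER-anchored factor of the same type as ATF6 that promotes secretory capacity, was at 808, 887 and 818 in parental and at 1291, 1197 and 1251 in resistant cells. It rose by 0.57 (SE 0.080, limma adjusted p = 0.00037), to 148.8% of the parental mean.

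*ERN1* was at 413, 362 and 475 in parental and at 353, 438 and 411 in resistant libraries. *EIF2AK3* was at 554, 567 and 406 in parental and at 428, 492 and 464 in resistant libraries. For both kinases the groups overlapped. The 95% interval of the log2 fold change ran from -0.35 to 0.25 for *ERN1* and from -0.44 to 0.18 for *EIF2AK3*. Changes within these limits, in either direction, could not be seen at this spread. *XBP1* was at 2278, 2143 and 2086 in parental and at 1844, 1885 and 1972 in resistant libraries. Here the groups did not overlap, with a log2 fold change of -0.19 (95% interval -0.34 to -0.038) and an adjusted p of 0.0514 by limma, just past the threshold. With a pseudocount of 10 and with a minimum mean of 50 the adjusted p by limma was 0.0493 and 0.0454. Under every other alternative it was above 0.05. With local centring the log2 fold change of *XBP1* was -0.13 (limma adjusted p = 0.213), and without the intensity trend the adjusted p was 0.102.

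The PERK-ATF4 branch had the highest share of called genes among the 5 groups, with 4 of 7 genes lower, 1 higher and a median log2 fold change of -0.41. This was 71.4% called, against 37.7% of all genes tested. With local centring 3 were lower and 1 higher. *ATF4* itself (ENSG00000128272, chr22:39519695-39522683), the transcription factor of the integrated stress response, was at 6231, 5628 and 6342 in parental and at 4759, 4395 and 4401 in resistant libraries. The resistant libraries lay together below all parental libraries. *ATF4* fell by 0.42 (SE 0.068, limma adjusted p = 0.000861), to 74.5% of the parental mean. *DDIT3* (ENSG00000175197, chr12:57516588-57521737), which encodes CHOP, the factor tied to cell death after prolonged ER stress, was at 243, 274 and 260 in parental and at 136, 105 and 112 in resistant libraries. This was a log2 fold change of -1.14 (SE 0.16, limma adjusted p = 0.000356), with the resistant mean at 45.4% of the parental one. *DDIT3* shares 27.2% of its exon bases with *MARS1* on the opposite strand, a gene with a mean value of 4087 and a log2 fold change of -0.64. It shares 4.44% with *MBD6*, also on the opposite strand, with a mean value of 1649 and a log2 fold change of -1.04. Whether reads were assigned by strand is not given in the sources used here, so the value of *DDIT3* may hold reads of these neighbours.

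*ASNS*, asparagine synthetase and a classical ATF4 target, was at 3004, 3301 and 3587 in parental and at 2382, 2272 and 2333 in resistant libraries. It fell by 0.50 (SE 0.076, limma adjusted p = 0.000628). With local centring the call ended, at -0.056 (limma adjusted p = 0.625). Another gene model on the same strand, ENSG00000284707, covers 49.3% of the *ASNS* exon bases, and its log2 fold change was -0.93. *PPP1R15A*, whose product GADD34 directs the phosphatase that reverses eIF2 phosphorylation, went from 374.7 ± 38.0 to 281.2 ± 21.0 (SD, n = 3 per group). Its log2 fold change was -0.41 (limma adjusted p = 0.0266), and the call was lost without parental library 1, resistant library 7 or resistant library 9 (limma adjusted p = 0.0836, 0.0846 and 0.0631).

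*TRIB3*, a pseudokinase that ATF4 and CHOP induce, went the other way. It was at 598, 734 and 576 in parental and at 921, 880 and 806 in resistant libraries, all 3 above the parental ones. *TRIB3* rose by 0.46 (SE 0.11, limma adjusted p = 0.00915), to 136.7% of the parental mean. *SESN2*, a stress-induced regulator of mTORC1, had a log2 fold change of -0.049 (95% interval -0.27 to 0.17). *CHAC1*, which degrades glutathione and is among the genes most induced by ATF4, was at 106, 207 and 217 in parental and at 138, 132 and 135 in resistant libraries. Parental library 1 lay below all other libraries. The log2 fold change of *CHAC1* was -0.31 (limma adjusted p = 0.362), and without parental library 1 it was -0.65 (limma adjusted p = 0.0144).

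**Figure D3:**
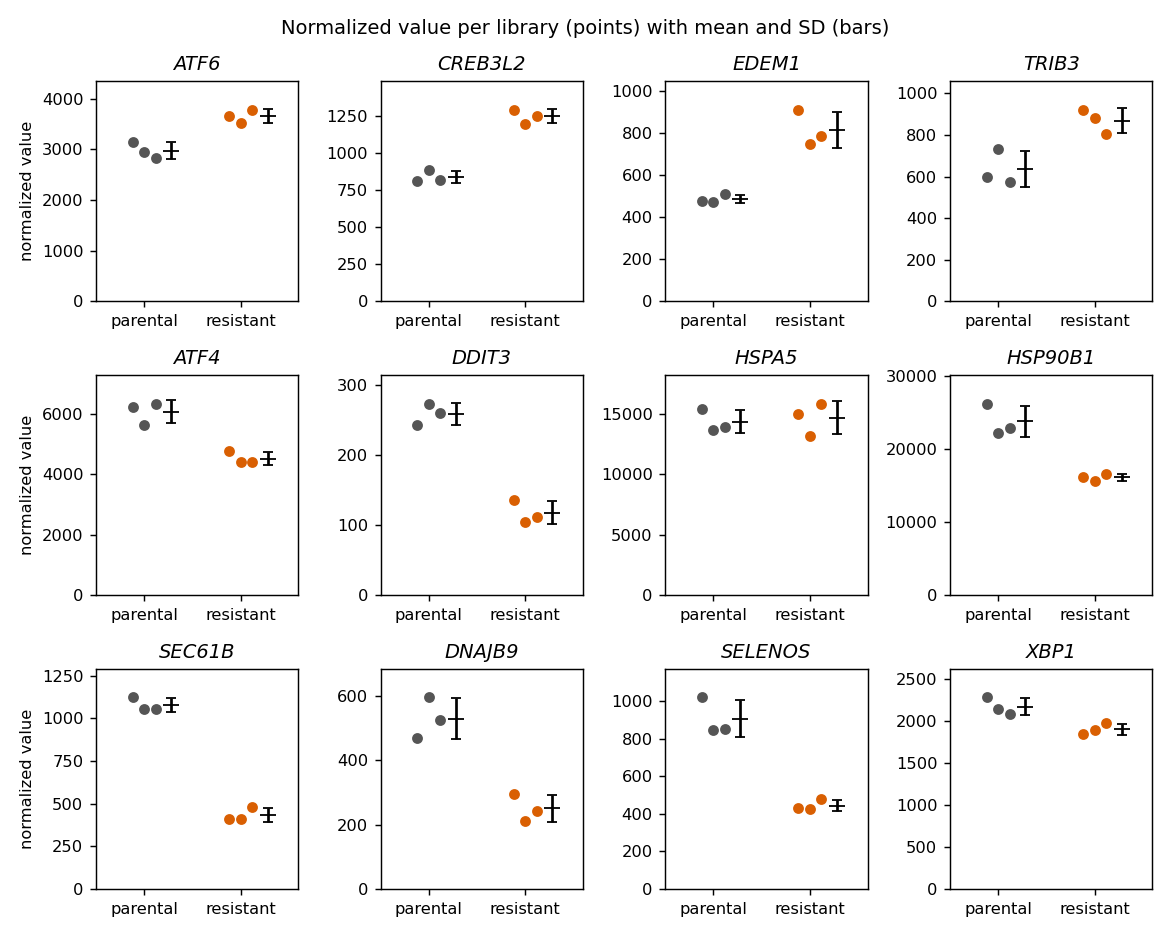
Normalized value of 12 genes in the 3 parental (grey) and 3 resistant (orange) libraries, with the mean and SD of each group as black bars; each vertical axis is linear and starts at 0. *ATF6*, *CREB3L2*, *EDEM1* and *TRIB3* are higher in every resistant library, *ATF4*, *DDIT3*, *HSP90B1*, *SEC61B*, *DNAJB9*, *SELENOS* and *XBP1* lower, and the libraries of *HSPA5* overlap.

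Among 9 ER chaperones and other targets linked above all to ATF6, 4 fell, 0 rose and 5 were not called, with a median log2 fold change of -0.20. This was 44.4% called, against 37.7% of all genes tested. With local centring 2 were lower and 0 higher. *HSPA5*, which encodes BiP, the HSP70 of the ER and the standard readout of ER stress, was among those not called. It was at 15435, 13658 and 13965 in parental and at 15035, 13202 and 15875 in resistant libraries, a log2 fold change of 0.033 with a 95% interval from -0.14 to 0.21. *HSP90B1* (chr12:103930107-103953931), which encodes GRP94, the HSP90 of the ER, was at 26216, 22142 and 22927 in parental and at 16131, 15550 and 16616 in resistant libraries. It fell by 0.56 (SE 0.071, limma adjusted p = 0.00022), to 67.8% of the parental mean, with all resistant libraries within a narrow range below the parental ones. With local centring the call ended, at a log2 fold change of -0.049 (limma adjusted p = 0.635).

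*SDF2L1*, a partner of BiP and its J-proteins, was at 1163, 1236 and 1074 in parental and at 949, 834 and 936 in resistant libraries (log2 fold change -0.35, limma adjusted p = 0.0112). *HYOU1*, which encodes GRP170, the nucleotide exchange factor of BiP, was at 23912, 21613 and 23974 in parental and at 18723, 16409 and 21148 in resistant libraries. *PDIA4*, the disulfide isomerase ERp72, was at 10359, 9616 and 9869 in parental and at 8183, 7522 and 8869 in resistant libraries. For all 3 genes the groups did not overlap, though resistant library 9 came close to the lowest parental value of *HYOU1*. The log2 fold change was -0.31 for *HYOU1* and -0.28 for *PDIA4* (limma adjusted p = 0.0202 and 0.0102). Both calls were lost with quantile normalization (limma adjusted p = 0.160 and 0.0810) and without the intensity trend (0.0929 and 0.0599), and with local centring *PDIA4* turned to 0.056 (0.581). That of *HYOU1* was also lost without parental library 1 or 3 or resistant library 7 or 8, with adjusted p between 0.0521 and 0.0765 by limma.

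The other 4 were not called. *CALR*, the lectin chaperone calreticulin, had a log2 fold change of -0.20 (limma adjusted p = 0.0840, and 0.0386 without resistant library 9). With local centring it was -0.030 (limma adjusted p = 0.843). *CRELD2*, an ER protein with isomerase activity, and *MANF*, a secreted regulator of BiP, had log2 fold changes of -0.16 and -0.059. *HERPUD1*, an ERAD scaffold, had one of 0.23 (limma adjusted p = 0.164, and 0.0494 without parental library 3). With local centring it was 0.29 and not called (limma adjusted p = 0.0891).

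The ER stress response element, ERSE, is the site that ATF6 binds together with NF-Y, and ERSE-II is a shorter relative. Promoters from RefSeq (GRCh38.p14, 250 bases before to 50 after the start) matched 37 of the 40 genes, all but *DERL1*, *DERL3* and *PDIA3*. ERSE was searched as CCAAT followed, after 9 bases of any kind, by CCACG, and ERSE-II as ATTGG followed, after 1 base of any kind, by CCACG, each on both strands. ERSE occurred in 6 of the 37 promoters (16.2%) and in 0.0806% of all 27305 promoters, and ERSE-II in 3 of 37 (8.11%) and in 0.0549% of all. The 40 genes were chosen for their known roles in this response, so motif shares above those of all promoters are no result of these data. The sites are shown because they are what these genes share in sequence although their changes differ. They are written along the strand of the motif, with its fixed letters in capitals.

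HSP90B1, first site, chr12:103930216-103930234: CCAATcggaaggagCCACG
HSP90B1, second site, chr12:103930321-103930339: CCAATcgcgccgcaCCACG
HSPA5, chr9:125241391-125241409: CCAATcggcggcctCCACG
CALR, chr19:12938384-12938402: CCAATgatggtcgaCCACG
CRELD2, chr22:49918554-49918572: CCAATccgagttcgCCACG
CANX, chr5:179698778-179698796: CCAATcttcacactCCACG
XBP1, chr22:28800603-28800621: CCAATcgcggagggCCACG
HYOU1, both sites, chr11:119057274-119057284 and chr11:119057380-119057390: ATTGGaCCACG
SDF2L1, chr22:21642114-21642124: ATTGGtCCACG
HERPUD1, chr16:56932025-56932035: ATTGGgCCACG

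Of the 9 genes with either site, *HSP90B1*, *HYOU1*, *SDF2L1* and *CANX* fell, 0 rose, and *HSPA5*, *CALR*, *CRELD2*, *XBP1* and *HERPUD1* were not called. Of all 40 genes, 37.5% were lower and 10.0% higher, and of all genes tested 19.8% and 17.8%. Whether genes with a site differ from others was not tested. *HSP90B1* and *HSPA5* form a pair in which 1 chaperone fell and the other was not called. With local centring neither was called, at -0.049 and -0.057. Their promoters are printed over the 250 bases before the RefSeq start, on the strand of the gene, with ERSE in capitals. *HSPA5* was added to the printed promoters after its values had been seen. The exact letters occur at 2 places in *HSP90B1* and at 1 in *HSPA5*, which says nothing about sites with other letters.

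HSP90B1, chr12:103930160-103930409, plus strand: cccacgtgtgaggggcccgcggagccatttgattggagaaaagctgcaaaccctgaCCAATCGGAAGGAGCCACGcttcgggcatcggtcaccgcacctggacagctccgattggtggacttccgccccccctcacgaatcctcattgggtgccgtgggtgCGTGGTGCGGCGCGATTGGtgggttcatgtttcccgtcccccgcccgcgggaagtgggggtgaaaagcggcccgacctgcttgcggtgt
HSPA5, chr9:125241344-125241593, minus strand: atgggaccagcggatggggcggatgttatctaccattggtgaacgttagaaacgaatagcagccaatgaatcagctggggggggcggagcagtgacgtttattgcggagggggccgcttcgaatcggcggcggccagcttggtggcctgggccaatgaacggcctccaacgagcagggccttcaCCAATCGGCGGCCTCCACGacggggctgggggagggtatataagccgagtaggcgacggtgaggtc

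The core of the unfolded protein response element, searched as TGACGTGG on both strands, occurred in the promoters of *HYOU1* and *VCP* (5.41% of 37, against 0.795% of all), and in *HYOU1* it overlaps an ERSE-II. The C/EBP-ATF response element that ATF4 binds, searched as TGATGNAA on both strands, occurred in *ASNS*, *CHAC1* and *HERPUD1* (8.11% of 37, against 3.67% of all). No promoter of the 4 genes that rose held any of the 4 motifs in this window, but only 12 of the 37 promoters held any. With 4 genes this sets them apart from the others in no tested way. The *ASNS* promoter is printed because it is the called PERK-ATF4 gene that holds the element, a call that ended with local centring, again over 250 bases before the RefSeq start and on the strand of the gene.

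ASNS, chr7:97872409-97872658, minus strand: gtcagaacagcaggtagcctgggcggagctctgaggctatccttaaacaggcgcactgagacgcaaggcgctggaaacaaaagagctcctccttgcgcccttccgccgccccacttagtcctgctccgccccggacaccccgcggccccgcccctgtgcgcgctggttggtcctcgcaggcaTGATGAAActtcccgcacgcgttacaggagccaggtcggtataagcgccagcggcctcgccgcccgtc

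Of the 12 genes linked above all to IRE1 and XBP1, 3 fell, 1 rose and 8 were not called, so that 33.3% were called against 37.7% of all genes tested. Their median was -0.090 on the log2 scale. With local centring 5 were lower and 1 higher, against 16.4% and 14.5% of all genes. Those that fell without centring were *SEC61B* and *SEC61A1* of the translocon, the channel through which proteins enter the ER, and the J-protein *DNAJB9*. *SEC61B* (ENSG00000106803, chr9:99222064-99230615) was at 1124, 1053 and 1056 in parental and at 413, 408 and 479 in resistant libraries. This was the largest fall of the 40 genes, a log2 fold change of -1.32 (SE 0.097, limma adjusted p = 6.93e-06), with the resistant mean at 40.2% of the parental one. *SEC61A1*, the channel-forming subunit, was at 11974, 10103 and 11372 in parental and at 8828, 8404 and 9358 in resistant libraries. It fell by 0.33 (SE 0.075, limma adjusted p = 0.0063), and its 95% interval, -0.49 to -0.16, did not reach that of *SEC61B*, -1.53 to -1.10. With local centring this difference was gone, at -0.44 for *SEC61A1* and -0.40 for *SEC61B*. The neighbours of *SEC61A1* had a median of 0.10 and those of *SEC61B* one of -0.87.

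*DNAJB9*, which encodes ERdj4, a co-chaperone that keeps IRE1 inactive and a strict XBP1 target, was at 467, 595 and 525 in parental and at 296, 211 and 242 in resistant libraries. It fell by 1.09 (SE 0.15, limma adjusted p = 0.000341), to 47.2% of the parental mean. *EDEM1* (chr3:5187646-5219958), a lectin that hands misfolded glycoproteins to degradation and another well-known XBP1 target, rose. It was at 477, 473 and 510 in parental and at 910, 748 and 786 in resistant libraries, a log2 fold change of 0.74 (SE 0.10, limma adjusted p = 0.000358). With 167.4% of the parental mean, *EDEM1* had the largest rise of the 40 genes.

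Of the retrotranslocation complex around the ubiquitin ligase Hrd1, the 5 genes in this group were not called without centring. With local centring *SEL1L* and *DERL1* were called lower, at -0.42 and -0.31 (limma adjusted p = 0.00895 and 0.0324). *SYVN1*, which encodes Hrd1, went from 1374 ± 67.9 to 1368 ± 80.7 (SD, n = 3 per group), and its partner *SEL1L* from 2161 ± 237 to 2039 ± 236. Their log2 fold changes were -0.0069 (95% interval -0.18 to 0.17) and -0.083 (95% interval -0.31 to 0.15). The derlins *DERL1*, *DERL2* and *DERL3*, rhomboid-like proteins of the same complex, had log2 fold changes of -0.19, -0.096 and 0.33. *DERL1* was called without resistant library 7 (log2 fold change -0.30, limma adjusted p = 0.0255) and *DERL3* without parental library 1 (0.47, adjusted p = 0.0433). *DERL3* shares 77.0% of its exon bases with *SMARCB1* on the opposite strand and is therefore uncertain.

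*DNAJC3*, which encodes p58IPK, an inhibitor of PERK, had a log2 fold change of 0.25 (limma adjusted p = 0.0576). It was called with quantile normalization, with upper-quartile scaling and without parental library 1 (limma adjusted p = 0.0204, 0.0192 and 0.00511). With local centring *DNAJC3* had a log2 fold change of 0.058 and was not called (limma adjusted p = 0.635). *DNAJB11*, the BiP co-chaperone ERdj3, and the disulfide isomerase *PDIA6* had log2 fold changes of -0.017 and -0.12, and neither was called. *PDIA6* shares 25.2% of its exon bases with *ATP6V1C2* on the opposite strand.

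Of 7 further folding and degradation genes, 4 fell and 0 rose, so that 57.1% were called against 37.7% of all genes tested. With local centring 3 were lower and 0 higher. *SELENOS* (ENSG00000131871, chr15:101270817-101277500), a selenoprotein of the ER membrane that recruits the ATPase p97 to derlins, was at 1021, 849 and 850 in parental and at 428, 424 and 481 in resistant libraries. It fell by 1.02 (SE 0.11, limma adjusted p = 6.24e-05), to 49.0% of the parental mean. *VCP*, which encodes p97 itself, was at 12625, 10891 and 11845 in parental and at 10496, 9488 and 9747 in resistant libraries, a log2 fold change of -0.25 (limma adjusted p = 0.0184). The 95% intervals, -1.26 to -0.78 for *SELENOS* and -0.40 to -0.093 for *VCP*, did not overlap.

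*CANX*, the membrane lectin calnexin, was at 20328, 17141 and 17865 in parental and at 15462, 13778 and 15720 in resistant libraries. *P4HB*, the main protein disulfide isomerase, was at 17736, 17352 and 17905 in parental and at 14953, 14241 and 16364 in resistant libraries, a log2 fold change of -0.22 (limma adjusted p = 0.0206). The groups did not overlap for either gene. The calls of *P4HB* and *VCP* were lost with quantile normalization (limma adjusted p = 0.157 and 0.193) and without the trend (0.0873 and 0.0831), that of *P4HB* with upper-quartile scaling (0.0513), and that of *CANX* without the trend (0.0731). Without single libraries, *P4HB* lost its call in the absence of parental library 3 or of resistant library 7 or 8, *VCP* in the absence of parental library 1 or 3 or of resistant library 8 or 9, and *CANX* in the absence of resistant library 8, with adjusted p between 0.0528 and 0.0767 by limma. *PDIA3* (ERp57), *WFS1* (wolframin, an ER calcium regulator) and *ERO1A*, the oxidase that recharges disulfide isomerases, had log2 fold changes of -0.10, -0.0038 and 0.17. *ERO1A* was called with quantile normalization and upper-quartile scaling (limma adjusted p = 0.0493 and 0.0370). Over all libraries together, 2 copies of *PDIA3* elsewhere in the genome summed to 4.96% of its own value, so its reads could be shared with them.

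Levels can be compared between genes only per length. Per kilobase of the longest transcript, the normalized value was highest for *CALR* (11045 in parental and 9613 in resistant cells), followed by *HYOU1* (4740 and 3839), *PDIA3* (3863 and 3599), *HSP90B1* (3595 and 2436) and *PDIA4* (3406 and 2804) in the order of the parental cells. *HSPA5* was at 2657 and 2722. In resistant cells *HSP90B1* lay below *PDIA4*, *HSPA5* and *PDIA6* (2452). The longest annotated transcript, 6609 bases for *HSP90B1*, need not be the main one in these cells. Which transcripts were used was not measured, so these levels and their order depend on the lengths taken. The sensors were far lower, at 46.1 and 44.4 for *ERN1* and at 108 and 97.6 for *EIF2AK3*, with *ATF6* at 398 and 489. Of the summed values of a library, the 9 ATF6-linked genes took 0.383% ± 0.020 in parental and 0.332% ± 0.027 in resistant cells (SD, n = 3 per group), and the 7 genes of the PERK-ATF4 branch 0.0452% ± 0.0017 and 0.0365% ± 0.00081. The sensors and factors took 0.0275% ± 0.0011 and 0.0319% ± 0.00085, higher in every resistant library. The IRE1-XBP1-linked genes took 0.135% ± 0.0072 and 0.127% ± 0.0031, with overlapping libraries, and the other folding and degradation genes 0.264% ± 0.0098 and 0.239% ± 0.011.

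Several of these genes lie in stretches of the genome where most tested genes moved the same way. For each gene the median log2 fold change of up to 50 neighbouring tested genes, 25 on each side, was taken. Over 16306 genes this median was beyond 0.25 in either direction for 17.4%, and its 5th and 95th percentiles were -0.47 and 0.36. Of the 19 called genes, 7 had neighbours with a median below -0.25 and fell like them: *SEC61B* (-0.87), *DDIT3* (-0.59), *HSP90B1* (-0.47), *ASNS* (-0.43), *SELENOS* (-0.41), *DNAJB9* (-0.41) and *PDIA4* (-0.31). Around *SEC61B*, between 96.8 and 107.3 Mb of chromosome 9, 96% of the 50 neighbours had a log2 fold change below 0. Around *HSP90B1*, between 98.5 and 108.5 Mb of chromosome 12, it was 94%.

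After each library was centred on these neighbours, 14 of the 19 genes were called in the same direction, and *ASNS*, *HSP90B1*, *PDIA4*, *P4HB* and *VCP* were not (adjusted p between 0.0654 and 0.635 by limma). *HSP90B1* then had a log2 fold change of -0.049 and *ASNS* one of -0.056, while *SEC61B* had -0.40, *DDIT3* -0.57, *DNAJB9* -0.62 and *SELENOS* -0.60, with adjusted p between 0.00178 and 0.0178 by limma. *EDEM1*, *TRIB3* and *ATF6*, whose neighbours had medians between -0.044 and 0.0091, kept log2 fold changes of 0.73, 0.49 and 0.29. *CREB3L2* rose among neighbours with a median of -0.29 and had 0.89 after centring. *PDIA3*, *SEL1L* and *DERL1*, not called without centring, were then called lower, with log2 fold changes of -0.42, -0.42 and -0.31. The number of gene copies was not measured, and the part of the neighbourhood in each change was not tested.

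**Figure D4:**
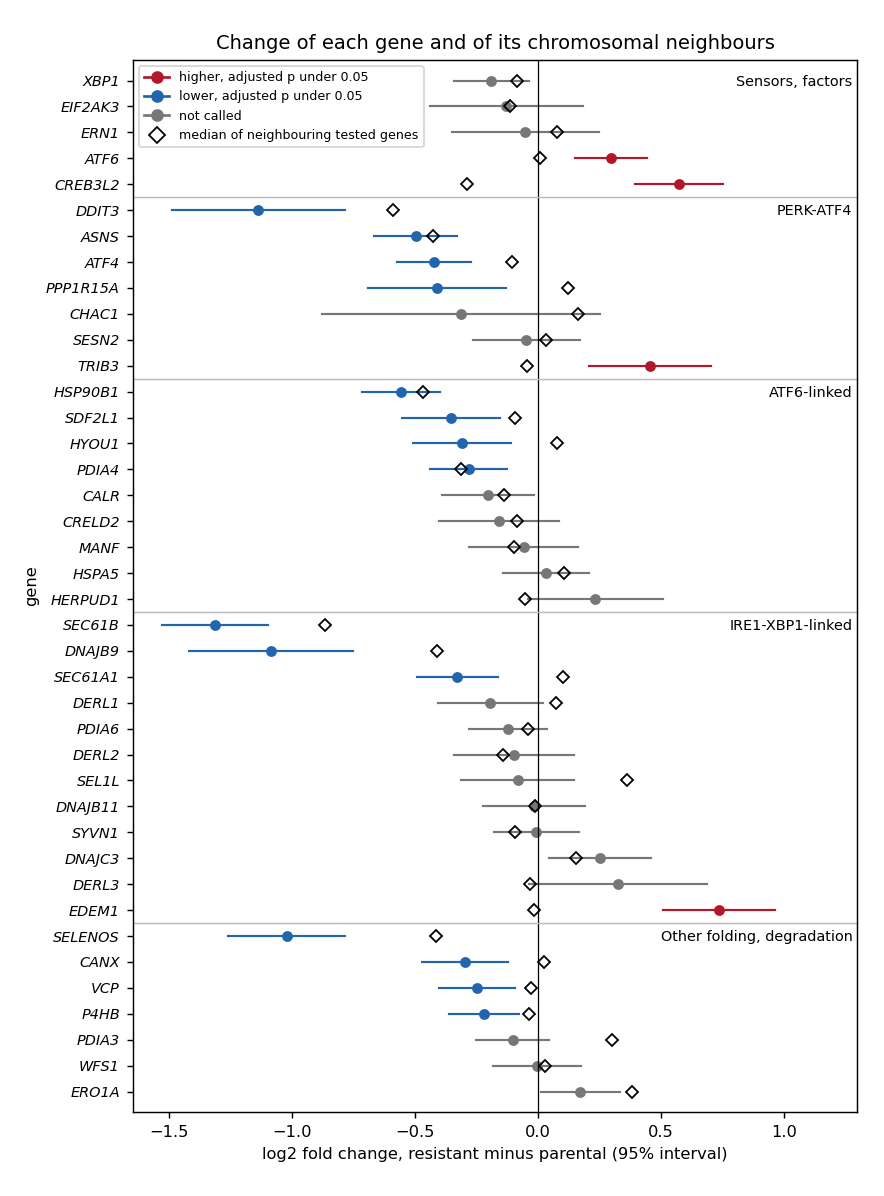
Log2 fold change, resistant minus parental, with its 95% interval (circles and lines) for each of the 40 genes by branch, coloured by call, and the median log2 fold change of up to 50 neighbouring tested genes (open diamonds). The diamonds of *HSP90B1* (-0.47), *ASNS* (-0.43) and *PDIA4* (-0.31) lie on the interval of the gene, and those of *EDEM1*, *TRIB3* and *CREB3L2* lie well below it.

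Outside the 40 genes, 181 other genes of the same pathways were listed and 173 tested, of which 53 fell, 26 rose and 94 were not called, with a median log2 fold change of -0.088. This was 30.6% lower and 15% higher, against 19.8% and 17.8% of all genes tested. With local centring 47 were lower and 12 higher, against 16.4% and 14.5% of all genes. Without the intensity trend 34 were lower and 15 higher, with 5072 of all genes called, whose split by direction was not taken. *NUPR1* and *CREB3L3* were listed at 0 in every library, and *GDF15*, *FGF21*, *ERN2*, *CREB3L1*, *PDIA2* and *CDNF* were under the minimum mean. Among 16 genes of eIF2, its exchange factor, its other kinases and its phosphatase, 6 fell and 2 rose. This was 50% called, against 37.7% of all genes tested. With local centring 7 were lower and 2 higher. *EIF2AK4*, which encodes GCN2, the eIF2 kinase of amino acid shortage, rose from 2136 ± 74.1 to 3475 ± 152 (SD, n = 3 per group), a log2 fold change of 0.70. *PPP1CC*, a catalytic subunit of the phosphatase, and *EIF2B1*, of the exchange factor, fell by 0.78 and 0.75, among neighbours with medians of -0.52 and -0.60. With local centring they had -0.28 and -0.15, and *EIF2B1* lost its call (limma adjusted p = 0.151).

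Of 37 tested ATF4 targets beside those above, 12 fell and 4 rose, so that 43.2% were called against 37.7% of all genes tested. With local centring 12 were lower and 2 higher. *SLC7A5* and *SLC3A2*, which together form the transporter LAT1-4F2hc of large neutral amino acids, fell from 12959 ± 709 to 7309 ± 386 and from 4442 ± 375 to 2710 ± 198 (SD, n = 3 per group), by 0.83 and 0.71 on the log2 scale. *SHMT2*, of mitochondrial one-carbon metabolism, fell by 0.58, and its neighbours had a median log2 fold change of -0.65. With local centring its call ended, at -0.0072 (limma adjusted p = 0.936). Of 16 genes for the processing of ATF6 and XBP1 and for related ER membrane factors, 4 rose and 1 fell. This was 31.25% called, below the 37.7% of all genes tested. With local centring 2 were higher and 1 lower. The proteases *MBTPS1* and *MBTPS2*, which cut ATF6 in the Golgi, rose by 0.29 and 0.38 (limma adjusted p = 0.0178 and 0.0123), and *BAK1* fell by 0.32. *MBTPS1* lost its call without the trend (0.0646), without parental library 2 or 3 and without resistant library 9, and *MBTPS2* without parental library 3, with adjusted p between 0.0523 and 0.0672 by limma.

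Of 37 other folding genes 14 fell and 8 rose, of 32 other ERAD genes 12 fell and 3 rose, and of 35 genes of translocation, signal peptidase and UFMylation 8 fell and 5 rose. This was 59.5%, 46.9% and 37.1% called, against 37.7% of all genes tested. Local centring left 9 lower and 4 higher, 7 and 1, and 11 and 1 in these groups, against 16.4% and 14.5% of all genes. The folding genes *CNPY2* and *CNPY3* fell by 0.86 and 0.70, and *HSPA13*, an HSP70 of the ER, rose by 0.69. *OS9*, the ERAD lectin that works with Hrd1, fell by 0.99, among neighbours with a median of -0.60. *RHBDD2*, a rhomboid-like membrane protein, fell by 1.00. *UBE2G2*, an ERAD ubiquitin-conjugating enzyme, rose by 1.27 among neighbours with a median of 1.25, and with local centring it was not called, at -0.033 (limma adjusted p = 0.771). The same centring gave log2 fold changes of -0.33 for *CNPY2*, -0.42 for *OS9*, -0.60 for *RHBDD2* and 0.38 for *HSPA13*, all still called. Both catalytic subunits of the signal peptidase were called in opposite directions, *SEC11C* lower by 0.79 and *SEC11A* higher by 0.53, and *DDRGK1*, of the UFMylation ligase, fell by 0.56. The largest adjusted p of the 18 genes named from this wider list was 0.0178 by limma.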

How the data were processed

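RNA of 3 parental and 3 onvansertib-resistant H526 harvests had been sequenced. Per the labels and the study's methods, the authors trimmed reads with Trimmomatic 0.38, quantified them with RSEM 1.3.1 (STAR is also named) on GRCh38 with Gencode v43, and normalized them with DESeq2 1.30.0. What they deposited is a normalized signal per gene. Only 49.3% to 62.1% of low values (up to 10 reads) lay within 0.05 of a whole number of reads, so a test on the log scale was chosen over a count model.

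Symbols and positions came from Gencode v44 (62639 of 62710 rows matched, with 47 duplicate pseudoautosomal rows left out). Genes with a mean of at least 10 entered limma 3.58.1 (R 4.3.3) as log2(value + 1), with the intensity trend, condition as the only term, Benjamini-Hochberg adjustment over all 16347 genes and a threshold of 0.05. On this scale the change of low genes is understated. The fit was tested on simulated data. Tables, depth and motif searches used Python 3.11.15, pandas 2.3.3 and numpy 2.4.6. All 40 genes are named, with values per library for the sensors, *XBP1*, *ATF4*, *DDIT3*, *HSPA5* and up to 4 called genes per group with the largest change, and others added. From the wider list up to 3 called genes per group with the smallest p are named. Promoters were printed for the 2 called genes with the largest fall that hold a motif. The genes, lists and tests were chosen with earlier results of these data known. Alternatives were other pseudocounts, filters and scalings, no trend, local centring, and each library left out.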

Additional observations from a re-analysis of the deposited data

How the results depend on the processing

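Over all alternatives, between 4784 and 6228 genes were called in all, between 4 and 6 of the 40 genes higher and between 10 and 16 lower. Of the 19 called genes, 11 kept direction and call under every alternative run: *ATF6*, *CREB3L2*, *ATF4*, *DDIT3*, *TRIB3*, *SDF2L1*, *DNAJB9*, *EDEM1*, *SEC61A1*, *SEC61B* and *SELENOS*. Of the other pathway genes, 15 were higher and 34 lower without the intensity trend, and 12 were higher with local centring. Leaving out each library in turn gave 4784 to 5618 called genes in all, 4 to 6 of the 40 higher and 11 to 15 lower, and 18 to 25 higher and 37 to 48 lower of the other pathway genes. The cause of these shifts was not tested. Log2 fold changes changed sign with local centring for *PDIA4* (0.056), *HSPA5* (-0.057), *MANF* (0.027), *DERL2* (0.033), *SYVN1* (0.075), *ERO1A* (-0.22) and *UBE2G2* (-0.033). With upper-quartile scaling they did so for *ERN1* (0.0021), *SESN2* (0.0064), *DNAJB11* (0.039), *SYVN1* (0.048) and *WFS1* (0.051), and with quantile normalization for *DNAJB11* (0.037), *SYVN1* (0.040), *PDIA3* (0.031) and *WFS1* (0.047). With single libraries left out, the range crossed 0 for *ERN1* (-0.15 to 0.046), *SESN2* (-0.087 to 0.011), *HSPA5* (-0.025 to 0.11), *MANF* (-0.13 to 0.024), *DNAJB11* (-0.082 to 0.088), *SYVN1* (-0.051 to 0.034) and *WFS1* (-0.045 to 0.058). Of these genes *PDIA4* and *UBE2G2* were called in the fit reported, and the others were not. No paired analysis was possible because the parental libraries (1 to 3) and the resistant libraries (7 to 9) share no number, and the sources used here do not say which harvests belong together. Depth does not limit these genes much, since the lowest of the 40 means lay far above the value of 3 reads, 2.83 in parental and 3.16 in resistant libraries.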
